A study of Mus musculus with 9 samples.

Results

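A set of 10 noncoding RNA genes, of the 49671 genes in the counts table, was followed through T cell activation. They were chosen by name: 7 hosts of small nucleolar RNAs (Gas5, Snhg1, Snhg3, Snhg5, Snhg6, Snhg8 and Snhg12), the nuclear RNAs Malat1 and Neat1, and the microRNA host Mir17hg. Each name matched 1 Ensembl gene in the GENCODE M21 annotation of GRCm38, the assembly also called mm10, and all 10 passed the filter on low counts.

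The RNA came from CD3+ T cells of the spleen of female F1 mus x cast mice, 3 libraries in each of 3 groups. These hybrids come from C57BL/6 mothers that carry a heterozygous Xist deletion and M. m. castaneus fathers, so that X inactivation is skewed, and every group shares this background. Unstimulated cells went into TRIzol straight after enrichment on CD3+ columns. The stimulated group spent 48 hours in culture on plate-bound anti-CD3 (1 µg/ml) with soluble anti-CD28 (10 µg/ml). The inhibitor group received the same stimulation with 2.5 µM IMD-0354, an inhibitor of the kinase IKK-beta in the NF-kB pathway, and the labels name no vehicle. Culture and stimulation cannot be told apart in comparisons with unstimulated cells. Replicates are labelled as biological, but no label ties them to separate animals. The p-values thus reflect sample-to-sample spread, which may be technical.

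Small nucleolar RNAs (snoRNAs) guide the chemical modification of ribosomal RNA, and are cut from the introns of longer host transcripts. Box C/D snoRNAs guide ribose methylation and H/ACA snoRNAs guide pseudouridylation, each in a complex with a fixed set of proteins. Many hosts encode no protein, begin with the pyrimidine-rich start also found in ribosomal protein mRNAs, and are degraded by nonsense-mediated decay after splicing, so that their level reflects both synthesis and decay. Malat1 is an abundant RNA of nuclear speckles, where splicing factors gather. Neat1 is the scaffold of another nuclear body, the paraspeckle. Mir17hg is the primary transcript of the miR-17-92 microRNA cluster, which promotes lymphocyte proliferation.

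Library totals ran from 34009988 to 56221174 counts. Loci that overlap ribosomal RNA took 11.4 to 19.3% of them. Even numbers made up 70.6 to 78.5% of the counts from 1 to 10, and whether the mates of a read pair were counted apart is not stated. Inhibitor library 1 stood apart: it had the smallest total, and 30106 genes had counts there, where the remaining 8 libraries had 20547 to 23223. The 10 T cell markers summed to 1740 to 2686 CPM (counts scaled to a common library total) in unstimulated, 2061 to 2171 in stimulated and 2161 to 2252 in inhibitor libraries, and none was at 0.

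The small RNAs that define the hosts are shown first. GENCODE places 29 snoRNA genes inside the 7 hosts, from 10 in Gas5 to 1 each in Snhg6 and Snhg8. The sequences below are from GENCODE M21 transcripts on GRCm38, 5′ to 3′. Capitals mark box C (TGATGA) within the first 20 bases and box D (CTGA) within the last 14, and 17 of the 29 hold both. Snord87 is shown because it alone among the C/D snoRNAs had counts. The Snord50 pair shows how alike copies inside 1 host can be, and Snord47 stands for the Gas5 set.

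Snord87 (in Snhg6, chr1:9942463-9942549, minus strand): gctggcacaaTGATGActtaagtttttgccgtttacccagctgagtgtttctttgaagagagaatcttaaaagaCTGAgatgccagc
Snord50a (in Snhg5, chr9:88521529-88521600, minus strand): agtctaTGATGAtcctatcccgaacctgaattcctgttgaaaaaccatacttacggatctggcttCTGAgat
Snord50b (in Snhg5, chr9:88521797-88521868, minus strand): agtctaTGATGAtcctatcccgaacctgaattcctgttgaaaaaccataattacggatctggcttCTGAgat
Snord47 (in Gas5, chr1:161038082-161038158, plus strand): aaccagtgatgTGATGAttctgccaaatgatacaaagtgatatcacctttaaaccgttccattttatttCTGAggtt

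Snord50a and Snord50b differ by 1 base in 72, C50A counted from the 5′ end of the annotated gene. Of the 29 snoRNA genes, 26 lie wholly within annotated exons of their host, because retained-intron transcripts are part of the annotation. Among these 26, 25 had no count in any library, and 1 of the 2 overlapping entries for Snora16a had 2 counts in all. How reads over more than 1 gene were assigned is not given in the sources used here. The counts therefore describe the host transcripts, including any reads from retained introns, and say nothing of the level of most snoRNAs.

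**Figure D1:**
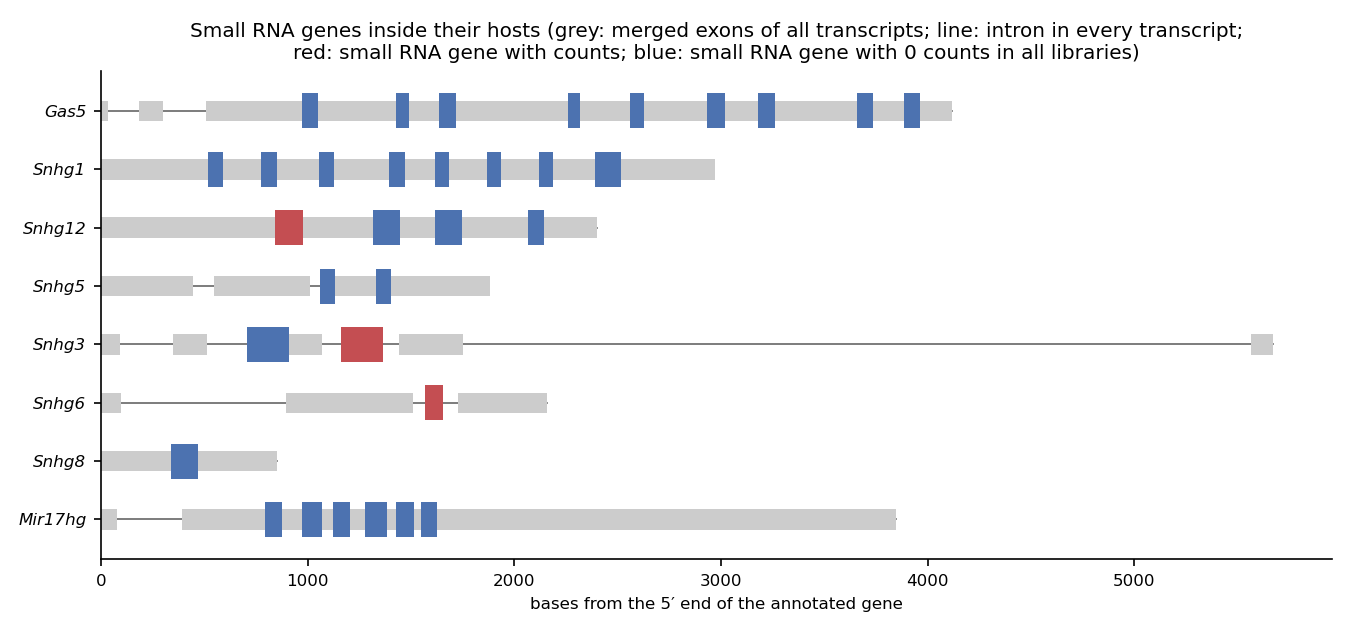
Map of the 7 snoRNA hosts and Mir17hg, drawn 5′ to 3′ in bases from the annotated start, with merged exons in grey and small RNA genes as tall bars, red with counts and blue with 0. Most blue bars lie on exons of the hosts, the red bars of Snord87 and Snora73b lie in introns, and the red bar in Snhg12 is the Snora16a entry with 2 counts.

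The microRNAs of Mir17hg are shown because their shared seeds tie the host to its targets. RefSeq (GRCm38.p6) places 6 hairpins within 836 bases of chromosome 14, with 11 mature microRNAs and 9 different seeds. The 6 best-known mature forms follow, with the seed, bases 2 to 8, in capitals.

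miR-17-5p: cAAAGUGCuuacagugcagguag
miR-20a-5p: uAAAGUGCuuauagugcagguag
miR-18a-5p: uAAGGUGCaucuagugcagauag
miR-19a-3p: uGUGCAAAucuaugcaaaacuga
miR-19b-3p: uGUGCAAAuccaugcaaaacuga
miR-92a-3p: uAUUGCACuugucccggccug

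AAAGUGC is shared by miR-17-5p and miR-20a-5p, and GUGCAAA by miR-19a-3p and miR-19b-3p. The 6 microRNA genes had 0 counts in every library, so that only the host transcript was measured.

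Activation divided the 10 RNAs by class. Among the 7 snoRNA hosts 6 rose in stimulated against unstimulated cells, by log2 fold changes of 1.24 to 2.56, and Mir17hg rose by 0.88. Malat1 and Neat1 fell by 2.67 and 1.78 on the log2 scale. Snhg8 was not called. In bulk RNA, fewer cells of a type and less RNA per cell cannot be told apart. All levels here are relative to the other RNA of a library, so rises and falls in amount per cell were not measured. Calls are an adjusted p under 0.05 in edgeR's quasi-likelihood test with Benjamini-Hochberg adjustment over 18374 genes. By this rule 32% of all genes tested were called higher and 34% lower, so a call as such was common, and the counts of 7 higher and 2 lower among 10 stand beside that background. The RNAs had been chosen with earlier results of these data known.

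With the inhibitor, 6 of the 10 differed from stimulated cells. Snhg1, Snhg3 and Snhg5 fell, by 0.70 to 0.89 on the log2 scale, while Malat1, Neat1 and Mir17hg rose, by 1.81, 0.73 and 0.47. Over all genes tested 21.7% were called higher and 22.8% lower in this comparison. For 5 of these 6 the change ran back toward the unstimulated level. Mir17hg was the exception, since it was higher in stimulated cells and higher again with the inhibitor. The share of all genes that ran back in this way was not counted. Both comparisons use the stimulated libraries, with opposite sign, which by itself favours such a pattern. Inhibitor and unstimulated cells also differed: 7 of the 10 were higher and 2 lower with the inhibitor, where 26.3% of all genes were called higher and 26.1% lower. The 3 comparisons share libraries, and so are not independent.

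**Figure D2:**
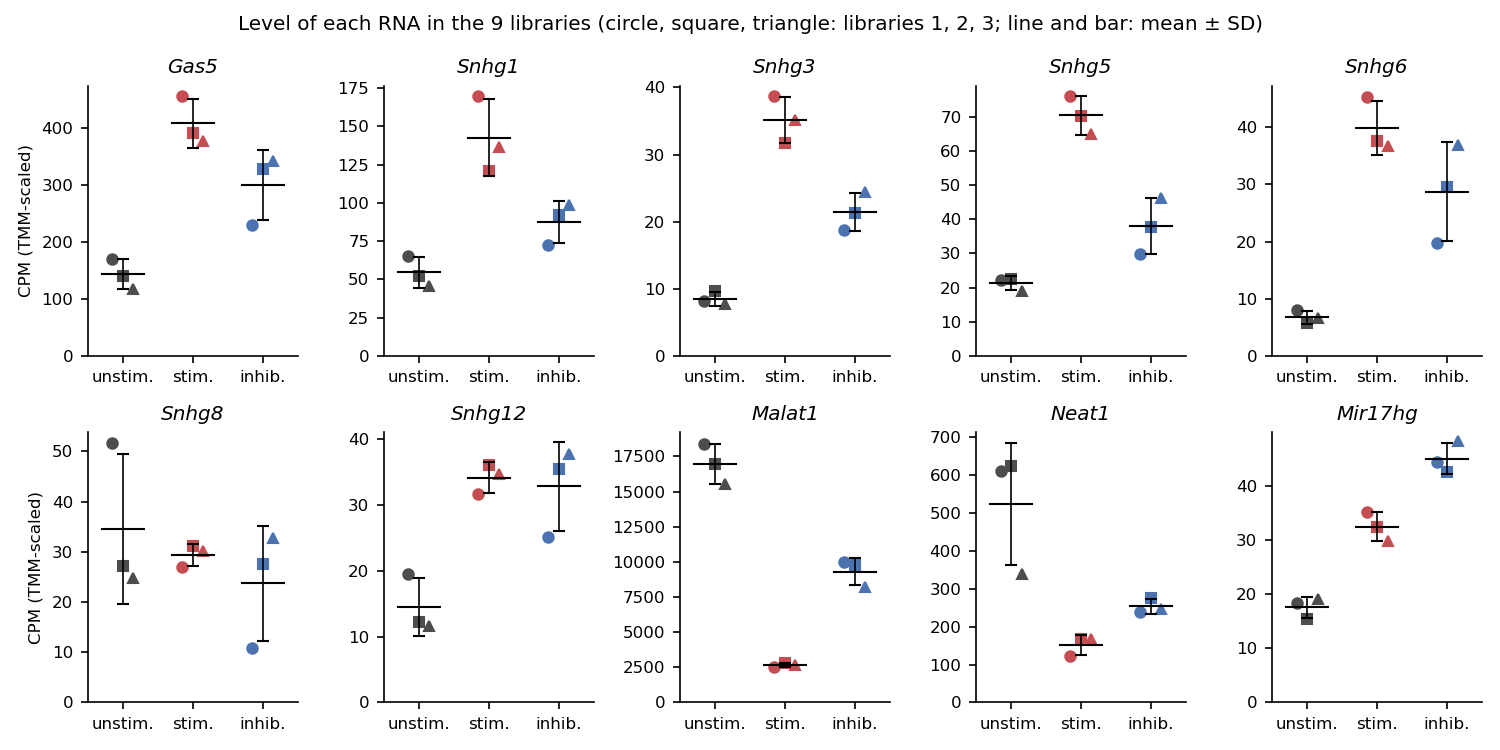
Level of the 10 RNAs in each of the 9 libraries, as CPM after scaling by the trimmed mean of M-values (TMM), on axes that start at 0; points are libraries, lines and bars are means ± SD of 3 libraries. Gas5, Snhg1, Snhg3, Snhg5, Snhg6, Snhg12 and Mir17hg are lowest in unstimulated libraries, and Malat1 and Neat1 are highest there.

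Among the snoRNA hosts, Gas5 had the highest level per kilobase of exon in stimulated cells, 108.5 ± 11.3 CPM per kilobase (SD, n = 3). The length used merges the exons of all annotated transcripts, retained introns included, so ranks per kilobase depend on the annotation. The name Gas5 stands for growth arrest-specific, after its accumulation in arrested cells. Gas5 (chr1:161034422-161038539, plus strand) was at 170.8, 141.0 and 118.1 CPM in unstimulated libraries 1, 2 and 3. It reached 456.6, 390.5 and 377.2 CPM in stimulated libraries, and 229.1, 327.4 and 341.6 CPM with the inhibitor. The 3 groups did not overlap. Stimulation raised Gas5 by a log2 fold change of 1.51 (SE 0.17, adjusted p = 3.1e-05), or 2.85-fold. The inhibitor group stood 0.45 below the stimulated group on the log2 scale (log2 fold change -0.45, SE 0.17, adjusted p = 0.0555), which misses the threshold, and 1.06 above the unstimulated group (adjusted p = 5.1e-04). That borderline p passed with DESeq2 (0.0188) and limma voom (0.0378), and without inhibitor library 1 the fold change was -0.29 (adjusted p = 0.155).

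Snhg1 hosts 8 snoRNA genes in a compact gene on chromosome 19. Its level was 65.5, 52.6 and 46.0 CPM in unstimulated libraries. Stimulated libraries held 170.2, 121.0 and 136.7 CPM, and inhibitor libraries 72.3, 92.1 and 98.4 CPM. No group overlapped another. Snhg1 rose by 1.38 with stimulation (SE 0.17, adjusted p = 5.3e-05) and fell by 0.70 with the inhibitor (SE 0.17, adjusted p = 0.00709).

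Snhg5, host of Snord50a and Snord50b, had the largest fitted fall under the inhibitor among the 7 hosts. It was at 22.3, 22.6 and 19.1 CPM before stimulation and at 76.1, 70.1 and 64.8 CPM after it. With the inhibitor it was at 29.9, 37.8 and 46.1 CPM, between the other groups and apart from both. The fold change was 1.72 on the log2 scale for stimulation (SE 0.15, adjusted p = 5.8e-06) and -0.89 for the inhibitor (SE 0.15, adjusted p = 0.00103).

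Snhg3 hosts the H/ACA snoRNAs Snora73a and Snora73b, which act in ribosomal RNA processing rather than as modification guides. Unstimulated libraries had 8.11, 9.72 and 7.72 CPM of Snhg3, stimulated libraries 38.7, 31.8 and 35.2 CPM, and inhibitor libraries 18.8, 21.3 and 24.4 CPM. Again the groups did not overlap. Snhg3 rose by 2.05 with stimulation (SE 0.14, adjusted p = 1.1e-06) and fell by 0.71 with the inhibitor (SE 0.14, adjusted p = 0.00226). Rcc1, the nucleotide exchange factor of the GTPase Ran, lies on the same strand and shares 13.7% of the exon bases of Snhg3. Rcc1 went from 15.8 ± 4.95 to 108.7 ± 12.6 and 46.1 ± 8.57 CPM (SD, n = 3), and how far shared reads move both genes was not tested. Gm17300, on the opposite strand, overlaps 71.5% of the exon bases of Snhg3, and had at most 0.136 CPM in any library.

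Snhg6 had the largest fitted rise of the 10 RNAs. From 7.97, 5.71 and 6.65 CPM in unstimulated cells it reached 45.2, 37.6 and 36.7 CPM in stimulated cells, a log2 fold change of 2.56 (SE 0.23, adjusted p = 5.4e-06). Inhibitor libraries spread from 19.7 to 36.9 CPM and overlapped the stimulated group, with a fold change of -0.47 (SE 0.21, adjusted p = 0.1). Mcmdc2, on the opposite strand, overlaps 11.1% of the exon bases of Snhg6. It was at 1.44 ± 0.61, 0.039 ± 0.050 and 0.064 ± 0.057 CPM in unstimulated, stimulated and inhibitor libraries (SD, n = 3). How far shared reads move Snhg6 was not tested. The gene for Snord87 lies in an intron of Snhg6, outside every annotated exon, and could be read on its own. Snord87 had 15, 20 and 46 counts in unstimulated, 136, 111 and 110 in stimulated and 55, 76 and 91 in inhibitor libraries. Its rise with stimulation was 2.04 on the log2 scale (SE 0.36, adjusted p = 6.5e-04), and the difference between inhibitor and stimulated cells was -0.55 (SE 0.34, adjusted p = 0.219). The log2 ratio of Snord87 to Snhg6 counts was -3.62 ± 0.79, -4.03 ± 0.09 and -4.06 ± 0.30 in the 3 groups (SD, n = 3). An exact two-sided permutation test gave p = 0.5 for stimulated against unstimulated and p = 0.9 for inhibitor against stimulated, where 0.1 is the smallest p that 3 against 3 allows. Whether such reads come from the snoRNA or from unspliced Snhg6 cannot be told apart.

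Snora73b, in an intron of Snhg3, had fewer counts: 9, 14 and 7 in unstimulated, 42, 27 and 28 in stimulated and 29, 28 and 28 in inhibitor libraries. It rose by 1.53 with stimulation (SE 0.47, adjusted p = 0.016), with no overlap between those groups. Inhibitor and stimulated levels overlapped, and differed by -0.03 on the log2 scale (SE 0.45, adjusted p = 0.971). Its near copy Snora73a had 0 counts, and 159 of the 205 bases of Snora73a lie in annotated exons of Snhg3. How reads were split between the copies, or between Snora73a and Snhg3, is uncertain.

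Snhg12 rose with stimulation and was not called between inhibitor and stimulated cells. It was at 19.5, 12.3 and 11.7 CPM, then 31.6, 36.1 and 34.7 CPM in stimulated libraries, and 25.2, 35.5 and 37.8 CPM with the inhibitor. Stimulated and inhibitor libraries overlapped. The log2 fold change was 1.24 for stimulation (SE 0.21, adjusted p = 5.2e-04). For the inhibitor it was -0.06 (SE 0.21, adjusted p = 0.846), and its sign turned under other scalings.

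Snhg8, host of the H/ACA snoRNA Snora24, was the exception among the hosts. Its levels were 51.7, 27.1 and 24.8 CPM in unstimulated, 27.0, 31.2 and 30.1 CPM in stimulated, and 10.9, 27.5 and 32.8 CPM in inhibitor libraries. All 3 groups overlapped, and unstimulated library 1 was high and inhibitor library 1 low within its group. The log2 fold change for stimulation was -0.23 (SE 0.37, adjusted p = 0.605), and without unstimulated library 1 it was 0.19. For the inhibitor against stimulated cells it was -0.31 (SE 0.38, adjusted p = 0.538), and 0.03 without inhibitor library 1. Set against Gas5, the log2 ratio of Snhg8 counts to Gas5 counts was -2.12 ± 0.35 in unstimulated and -3.79 ± 0.25 in stimulated libraries (SD, n = 3). These ratios did not overlap, and the exact two-sided permutation p was 0.1, the smallest that the design allows.

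The hosts differed from library to library in a shared way. Inhibitor library 1 was the lowest of its group for all 7 hosts, and inhibitor library 3 the highest for all 7. This order was not particular to the hosts described. In inhibitor libraries 1, 2 and 3, Zfas1 was at 53.6, 95.7 and 102.0 CPM and Ruvbl2 at 79.8, 103.4 and 106.5 CPM. Son ran the other way, at 853.6, 800.3 and 766.1 CPM, as did Kcnq1ot1. The share of all genes in either order was not counted. Library 1 is also the one with counts in the most genes, and the part of that difference in the host levels was not tested. Without library 1, Snhg1, Snhg3 and Snhg5 were still lower in inhibitor than in stimulated cells, with log2 fold changes of -0.58, -0.62 and -0.75 (adjusted p = 0.0252, 0.00887 and 0.00212). Together the 7 hosts took 0.0303% ± 0.0056 of counts in unstimulated, 0.0713% ± 0.0079 in stimulated and 0.0524% ± 0.0075 in inhibitor libraries (SD, n = 3).

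**Figure D3:**
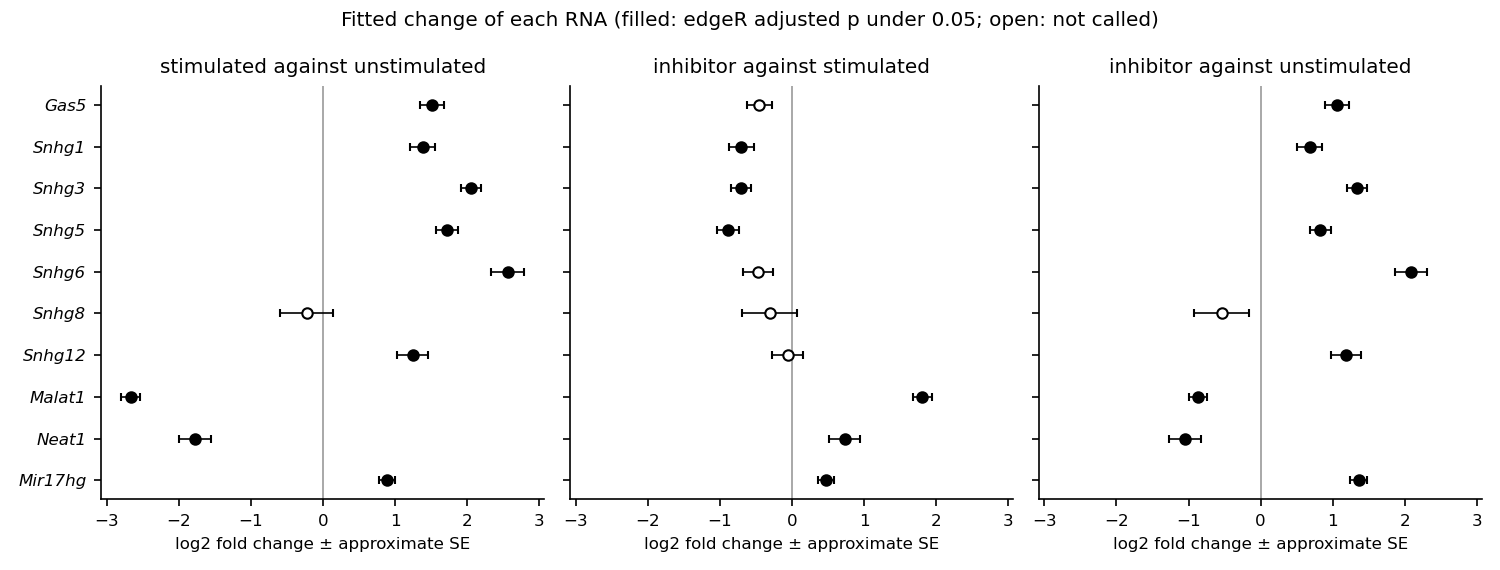
Fitted log2 fold change of each RNA in the 3 comparisons, with bars of 1 approximate SE; filled points passed an adjusted p of 0.05 and open points did not. Hosts lie to the right of 0 for stimulation except Snhg8, and Malat1 and Neat1 lie on the opposite side from most hosts in all 3 panels.

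Sequence around the annotated starts was compared for 8 of the 10 RNAs in RefSeq windows, 9 in all, of 250 bases before to 50 after the start. The 3 windows below show the motifs that were found. Each runs from 50 bases before the start to 30 bases from it on, on GRCm38.p6. Capitals mark TGACGTCA, a cyclic AMP response element, TATAAA placed as a TATA box, and a C at the start followed by at least 4 bases that are C or T, the pyrimidine run of ribosomal protein genes.

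Gas5, second start (chr1:161035116-161035195, plus strand): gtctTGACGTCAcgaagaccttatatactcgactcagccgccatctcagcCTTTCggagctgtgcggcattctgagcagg
Snhg8 (chr3:123508307-123508386, minus strand): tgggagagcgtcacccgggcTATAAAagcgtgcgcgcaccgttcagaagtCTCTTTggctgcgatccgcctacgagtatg
Snhg5 (chr9:88522868-88522947, minus strand): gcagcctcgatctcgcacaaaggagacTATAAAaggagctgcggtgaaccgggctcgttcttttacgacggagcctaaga

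Such a run, opening with C at the start, was in 2 of the 9 windows, that of the second Gas5 start and that of Snhg8. Snhg12 also has 6 pyrimidines from its RefSeq start on, but the first is T, so it was not counted. The run opening with C was in 2.505% of 32851 promoters and in 14 of 68 windows of ribosomal protein genes. It was sought only at the exact annotated start, and most ribosomal protein windows lack it by this rule. Its absence from a window therefore says little of the true start. TGACGTCA, searched on both strands, was in 1 of 9 windows and in 1.79% of all promoters. TATAAA, searched on the gene's strand upstream of the start, was in 2 of 9 and in 1.994%. The Snhg3 window holds TATAAA after its RefSeq start, outside the stretch searched. The E-box CACGTG, a motif of Myc, was in none of the 9 windows and in 7.15% of all promoters. The RefSeq start used for Mir17hg lies 1511 bases from the GENCODE start of that gene, so that the upstream promoter was not searched. A match describes letters in a window, and not a bound site.

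Gas5 and Snhg1 start close to a gene on the opposite strand. Slc3a2, which encodes the heavy chain of amino acid transporters, starts 106 bases from Snhg1. It rose from 96.6 ± 5.01 to 362.7 ± 16.1 CPM with stimulation and was at 336.8 ± 21.2 CPM with the inhibitor (SD, n = 3), a difference of -0.11 on the log2 scale from stimulated cells (adjusted p = 0.286), while Snhg1 fell. Zbtb37, a zinc finger gene whose start lies 427 bases from that of Gas5, moved against Gas5. Zbtb37 fell by 0.44 with stimulation (adjusted p = 0.0058) and rose by 0.39 with the inhibitor (adjusted p = 0.0174).

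Most genes of the same machinery also rose on activation, where 32% of all genes tested were called higher and 34% lower. Of 9 further noncoding hosts tested, out of 14 listed, 7 rose and none fell, with a median log2 fold change of 0.97 against -0.05 for all genes tested. Zfas1, host of box C/D snoRNAs, rose from 24.8 ± 3.55 to 147.3 ± 6.42 CPM (SD, n = 3). Of 20 protein-coding hosts 18 rose and 1 fell, with a median of 1.09. The chaperonin subunit Tcp1 rose by 2.18 and the mitochondrial chaperone Hspa9 by 2.55 among them.

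Proteins that bind or assemble snoRNAs rose without exception among those tested. All 15 of 15 tested, out of 16 listed, were called higher, with a median of 1.31. Ruvbl2, an ATPase of snoRNP assembly, went from 32.9 ± 2.66 to 179.4 ± 17.3 CPM. The C/D core protein Nop58 rose by 1.28 and the pseudouridine synthase Dkc1, itself a snoRNA host, by 1.47. Among 79 cytosolic ribosomal protein genes 55 rose, none fell, and the median was 0.74. Nonsense-mediated decay factors gave 9 of 18 higher, 5 lower and a median of 0.21, where all genes gave 32% higher and 34% lower.

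Against a background of 22.8% lower and 21.7% higher among all genes, the same lists were counted for inhibitor against stimulated cells. Of 15 snoRNP genes 10 fell and none rose, with a median of -0.42 where the median of all genes was 0.03. Ruvbl1 fell by 1.16 and Nhp2, an H/ACA core protein, by 0.98. Protein-coding hosts gave 8 lower and 2 higher of 20. Tpt1 was 1 of those 2, with a rise of 0.88. Among the 9 other noncoding hosts 2 fell and 1 rose: Zfas1 fell by 0.81 and Snhg17 rose by 0.46. Ribosomal protein genes had 8 lower, 1 higher and 70 not called of 79, and a median of -0.02. Against unstimulated cells, the inhibitor group had 14 of 15 snoRNP genes and 51 of 79 ribosomal protein genes higher, and none lower. In that comparison 26.3% of all genes were called higher and 26.1% lower. These lists were drawn up with results of these data known, and their counts are descriptions.

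**Figure D4:**
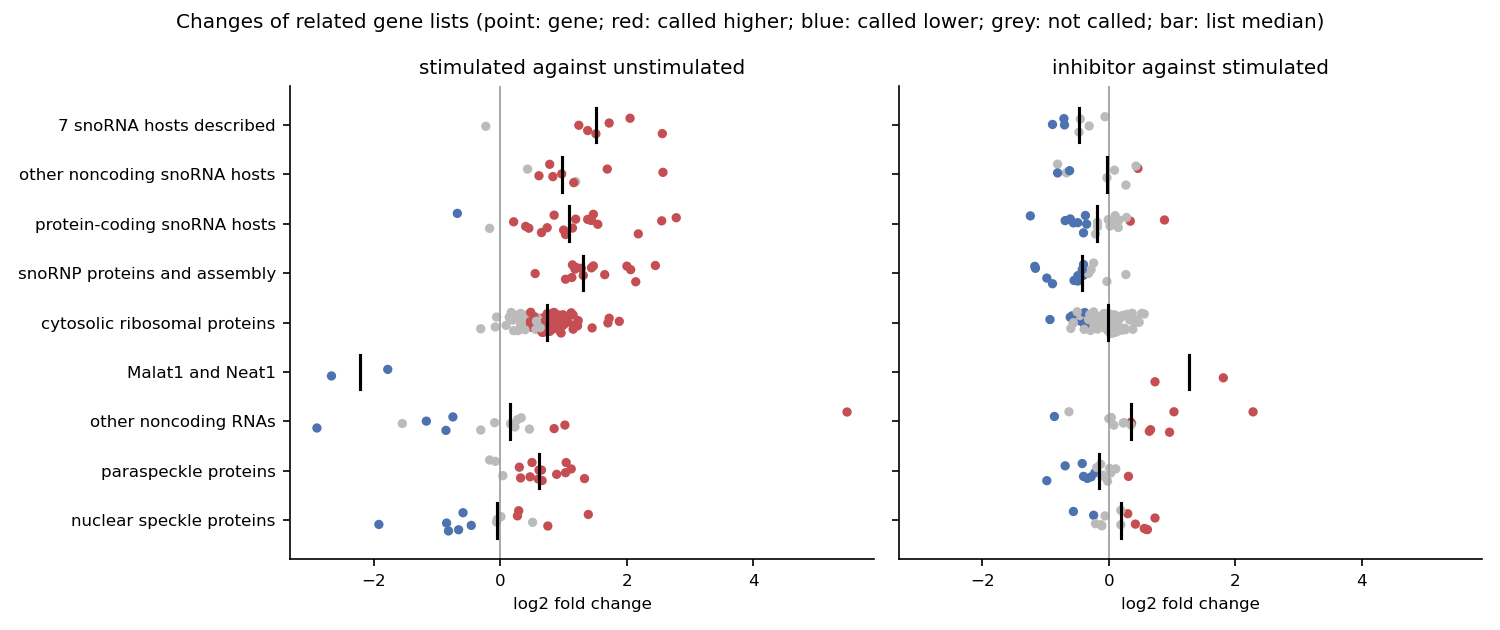
Log2 fold change of each gene (points) in lists related to the 10 RNAs, for stimulated against unstimulated and inhibitor against stimulated cells; red was called higher, blue lower, grey not called, and bars are list medians. The medians of the snoRNP and host lists lie right of 0 with stimulation, and Malat1 and Neat1 lie left of 0 there and right of it with the inhibitor.

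Malat1 was by far the most abundant of the 10 per kilobase of exon in every group, at 2430 ± 205, 381 ± 16.9 and 1333 ± 139 CPM per kilobase (SD, n = 3). It lies on chromosome 19 (5795690 to 5802672, minus strand), as 1 annotated exon block of 6983 bases. Unstimulated libraries had 18410, 16950 and 15540 CPM, stimulated libraries 2536, 2771 and 2670 CPM, and inhibitor libraries 9983, 9745 and 8191 CPM. The groups were far apart, and no library of 1 group reached another. Malat1 fell by 2.67 with stimulation (SE 0.13, adjusted p = 1.4e-07) and rose by 1.81 with the inhibitor against stimulated cells (SE 0.13, adjusted p = 5.1e-06). It was still lower than in unstimulated cells, by a log2 fold change of -0.87 (SE 0.13, adjusted p = 2.6e-04). Malat1 alone took 1.64 to 1.90% of all counts in unstimulated libraries, 0.241 to 0.256% in stimulated and 0.775 to 1.08% in inhibitor libraries.

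Neat1, the neighbour of Malat1 on chromosome 19 (5824708 to 5845478, minus strand), moved the same way. It was at 609.9, 622.8 and 339.2 CPM in unstimulated libraries, 121.6, 167.6 and 167.3 CPM in stimulated and 237.5, 276.6 and 245.5 CPM in inhibitor libraries. No groups overlapped, though unstimulated library 3 stood well below libraries 1 and 2. Neat1 fell by 1.78 with stimulation (SE 0.22, adjusted p = 5.0e-05). It rose by 0.73 with the inhibitor (SE 0.21, adjusted p = 0.0185), and that call was lost without stimulated library 1 (0.59, adjusted p = 0.0739) and without inhibitor library 2 (0.66, adjusted p = 0.0638). Per kilobase, Neat1 ranked 4 of 10 in unstimulated cells and 10 of 10 in both cultured groups, at 25.2, 7.33 and 12.2 CPM per kilobase. These ranks divide by its whole annotated block of 20771 bases. Counts over its single annotated block do not separate the short and the long isoform, of which the long one builds paraspeckles.

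The proportion of Malat1 to Neat1 was compared as well. The log2 ratio of their counts was 5.07 ± 0.40 in unstimulated, 4.14 ± 0.21 in stimulated and 5.20 ± 0.17 in inhibitor libraries (SD, n = 3). Stimulated ratios did not overlap either other group, with an exact two-sided permutation p of 0.1 in both cases, the smallest possible. Inhibitor and unstimulated ratios overlapped (exact permutation p = 0.6).

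Markers of other cell types were lower in the cultured groups, as both nuclear RNAs were. Summed over 14 myeloid markers, the level was 1168 to 3048 CPM in unstimulated, 49.7 to 53.9 in stimulated and 55.3 to 85.4 in inhibitor libraries, and Siglech and Clec9a were at 0 in all stimulated libraries. For 12 B cell markers the sums were 1009 to 2959, 82.8 to 92 and 160 to 164 CPM. For 8 NK cell markers they were 375 to 471, 108 to 133 and 71.9 to 85.2 CPM, and for 11 erythroid and platelet markers 58.0 to 806, 5.77 to 9.51 and 7.95 to 19.0 CPM. Unstimulated library 3 had the lowest B cell, myeloid and erythroid sums and the highest NK cell sum of its group, and 8 of the 10 RNAs were lowest there, Malat1, Neat1 and 6 of the 7 hosts. The share of all genes lowest in that library was not counted. The B cell and myeloid sums were highest in library 2, and Malat1 in library 1. Between inhibitor and stimulated cells, 7 of 12 B cell and 5 of 14 myeloid markers were called higher and none lower, while NK cell markers gave 1 higher and 7 lower of 8 and erythroid and platelet markers 1 lower of 11. All genes gave 21.7% higher and 22.8% lower. The part of other cells in the levels and changes of Malat1, Neat1 and the hosts was not tested.

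Proteins of the nuclear bodies of Malat1 and Neat1 were counted too. Of 16 paraspeckle proteins 13 rose with stimulation and none fell, with a median of 0.60, where Neat1 fell. Dazap1, an RNA-binding paraspeckle protein, went from 96.4 ± 12.2 to 243.0 ± 8.83 CPM and 123.3 ± 10.8 CPM with the inhibitor (SD, n = 3). With the inhibitor 7 of the 16 fell and 1 rose, where all genes gave 22.8% lower and 21.7% higher. Nuclear speckle proteins gave 4 higher and 6 lower of 14 with stimulation, near the 32% and 34% of all genes. The kinase Clk1, which phosphorylates splicing factors, fell by 1.92 and the splicing factor Srsf5 by 0.82, while the splicing factor Srsf1 rose by 1.39. With the inhibitor 6 of 14 rose and 2 fell, among them a rise of 0.73 in Son, a speckle scaffold, and a log2 fold change of -0.56 in Srsf1.

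Among 15 further noncoding RNAs tested, out of 19 listed, 3 rose and 4 fell with stimulation, where 32% of all genes were higher and 34% lower. Tug1 fell from 163.4 ± 19.1 to 72.6 ± 5.74 CPM, and Kcnq1ot1, an antisense RNA of an imprinted domain, from 409.9 ± 19.5 to 243.7 ± 11.9 CPM (SD, n = 3). Both rose with the inhibitor, Tug1 by 0.64 and Kcnq1ot1 by 1.03. Mir155hg, the host of another lymphocyte microRNA, rose by 5.48 with stimulation, to 48.8 ± 4.87 CPM, and was at 57.4 ± 1.47 CPM with the inhibitor. With the inhibitor 7 of the 15 were higher and 1 lower than in stimulated cells, where all genes gave 21.7% higher and 22.8% lower.

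Mir17hg followed neither pattern. Its levels were 18.3, 15.4 and 19.0 CPM in unstimulated, 35.1, 32.3 and 29.8 CPM in stimulated, and 44.3, 42.5 and 48.2 CPM in inhibitor libraries. The groups were stepwise higher without overlap. The rise was 0.88 with stimulation (SE 0.11, adjusted p = 7.4e-05) and a further 0.47 with the inhibitor (SE 0.11, adjusted p = 0.00702). Inhibitor libraries were above unstimulated ones by 1.36 (SE 0.12, adjusted p = 7.2e-06).

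Factors reported to bind the Mir17hg promoter were mostly higher with stimulation and mostly lower with the inhibitor. Of 7 such factors 5 rose and 1 fell with stimulation, with a median of 2.05, where all genes gave 32% higher and 34% lower. Myc rose from 88.1 ± 1.20 to 381.9 ± 37.2 CPM (SD, n = 3). Against stimulated cells the inhibitor group had 4 of 7 lower and 1 higher, where all genes gave 22.8% lower and 21.7% higher. Myc was down by 0.43 and the E2F partner Tfdp1 by 1.16, and Max was up by 1.00.

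Reported targets of the miR-17-92 microRNAs were called in both directions, as all genes were. Of 20, 8 rose and 10 fell with stimulation, beside 32% higher and 34% lower over all genes, with a median of -0.37. The pro-apoptotic gene Bcl2l11 went from 121.3 ± 10.6 to 26.5 ± 0.68 CPM with stimulation and was at 98.0 ± 5.62 CPM with the inhibitor (SD, n = 3). Cdkn1a, a cell cycle inhibitor, rose by 6.09 with stimulation and fell by 2.7 with the inhibitor. With the inhibitor 8 of 20 targets rose and 4 fell, beside 21.7% and 22.8% over all genes. Against the same backgrounds, genes that process or use microRNAs gave 4 higher and 7 lower of 15 with stimulation, and 7 higher and 2 lower with the inhibitor. Mature microRNAs were not measured, and no link between them and these levels was tested.

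Genes whose profile over the 9 libraries was most like each RNA were sought among 8938 genes, by the root mean square difference of centred log2 CPM. For Gas5 the nearest were Tmem258 (0.0906) and the ribosomal protein gene Rpl41 (0.0968). For Malat1 they were Sh3bp5 (0.152), Zfhx2 (0.164) and Ahnak (0.171). Neat1 was nearest to the noncoding RNA 5031425E22Rik (0.187) and Abca7 (0.208), and Mir17hg to Traf6 (0.0840) and Mex3c (0.0851). The libraries share 3 groups, so such likeness mostly restates the group levels.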

How the data were processed

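Total RNA was depleted of ribosomal RNA and made into stranded libraries, per the labels' protocols. The authors deposited raw counts per gene, aligned to mm10 with STAR 2.7.1a and counted with featureCounts, per the submitters' processing notes. Neither the annotation release nor the strand setting is stated, and reads over overlapping or antisense genes may be assigned to either. Of the Ensembl IDs, 49326 of 49671 matched GENCODE M21.

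Counts were fitted with edgeR 4.0.16 (R 4.3.3; filterByExpr, TMM, quasi-likelihood, 9 libraries, 6 residual degrees of freedom), with Benjamini-Hochberg adjustment over 18374 genes. The SE is the log2 fold change divided by the root of F. CPM use TMM-scaled totals. The 10 RNAs were always named. From each list up to 4 genes with the smallest adjusted p and at least 10 CPM were named, besides genes whose role a sentence turns on. The RNAs and lists were chosen with earlier results of these data known. On simulated counts for stimulated against unstimulated cells (17855 genes), 96% of 3-fold and 24% of 1.5-fold changes were recovered. Only 100 genes were changed at each fold there, all of at least 10 CPM. In the data 32% of genes were called higher and 34% lower, so these rates do not describe recovery in the real comparison. Alternatives used DESeq2 1.42.0 and limma 3.58.1 (voom), other scalings, filters, and fits without each library.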

Additional observations from a re-analysis of the deposited data

How the results depend on the processing

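Over 19 alternatives, 9 of them leaving out 1 library, 552 of 570 values for the 10 RNAs kept their direction and their side of the threshold, 2 lost a call, 10 gained one and 6 changed sign. Signs changed only where nothing was called. With 1 replicate left out, Snhg8 ran from -0.42 to 0.19 for stimulation (0.19 without unstimulated replicate 1) and from -0.62 to 0.034 for inhibitor against stimulated cells (0.034 without inhibitor replicate 1). For Snhg12 that comparison gave 0.066 with upper-quartile scaling, 0.015 with total-count scaling, 0.037 with total-count scaling without loci that overlap ribosomal RNA (chosen after seeing the data), and -0.17 to 0.10 with 1 replicate left out (0.10 without inhibitor replicate 1). Gas5 gained the inhibitor call in 7 alternatives and Snhg6 in 2, so that 5 of the 10 RNAs were lower with no filter, and 3 to 5 when 1 replicate was left out. Snhg8 was lower in inhibitor than in unstimulated cells with no filter (-0.55, adjusted p = 0.0164). Restricting the test to genes of at least 10 CPM left 3463 higher and 3488 lower genes for stimulation (5880 and 6246 otherwise), and 2947 and 2920 for inhibitor against unstimulated cells (4826 and 4800 otherwise), because 8948 genes were then tested. Of 9 same-numbered pairs of libraries 2 correlated above 0.1 (range -0.194 to 0.144), and 5 of 9 libraries correlated best with their own number. Stimulated and inhibitor libraries of the same number correlated at 0.144, 0.107 and 0.0782, above every pair of different numbers between these groups (highest 0.0263). Pairs of different numbers reached 0.141 (unstimulated 2 with inhibitor 1) and 0.143 (unstimulated 3 with inhibitor 2) elsewhere. Values were centred within each group, which ties the correlations to each other, so they do not settle whether libraries are paired. A replicate block changed no call of the 10 RNAs and gave 5705 higher and 6002 lower genes for stimulation, and 3642 and 3940 for inhibitor against stimulated cells. Depth limits Snora73b and Snord87 most, with 7 to 136 counts a library.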
